A study of Mus musculus with 4 samples.

Results

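Immediate early genes and heat shock genes respond to the handling and stimulation of cells, and 38 of them were followed here through single brain cells of mice with and without PRMT1 in microglia. They were chosen by symbol from the 32285 genes in the deposited feature lists. Of the 38 members, 28 were immediate early genes, which comprised 6 AP-1 genes (Fos, Fosb, Fosl2, Jun, Junb and Jund), 3 Egr genes (Egr1, Egr2 and Egr3), 12 early response and feedback genes (Ier2, Ier3, Ier5, Dusp1, Dusp2, Dusp5, Zfp36, Btg1, Btg2, Rhob, Gadd45b and Socs3), 3 Klf genes (Klf2, Klf4 and Klf6) and 4 other transcription factors (Nr4a1, Nr4a2, Cebpb and Myc). The other 10 were heat shock genes (Hspa1a, Hspa1b, Hspa8, Hspb1, Hsp90aa1, Hsp90ab1, Hspe1, Dnaja1, Dnajb1 and Hsph1).

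The groups were 2 PRMT1FL mice, homozygous for a floxed Prmt1 allele, and 2 PRMT1Cx3cr1-KO mice, which carry the same floxed alleles and a tamoxifen-inducible recombinase, CreERT, under the Cx3cr1 promoter. That promoter is active in microglia and also in other macrophages and monocytes, and the sources used here do not say whether the control mice carried the recombinase. All mice were on a C57BL/6 background, received tamoxifen for 5 consecutive days and were fed 0.2% cuprizone (CPZ) for 5 wk, a compound that binds copper and strips axons of myelin. The study's methods start the injections when mice were 5 to 6 wk old and the diet 2 wk after them, whereas the labels give that age for the diet. Brains were dissociated with enzymes and CD11b+ CD45+ cells were sorted, so that each mouse gave 1 library of single cells.

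Immediate early genes are switched on without new protein synthesis when kinase or calcium signals reach preformed factors such as SRF, ELK1 and CREB at their promoters. Their products include the AP-1, Egr and Klf transcription factors, and also proteins that end the response, such as the MAP kinase phosphatases of the Dusp family and the mRNA decay factor Zfp36. Heat shock genes encode chaperones that fold proteins. Some are made in all cells at all times and others are induced through the factor HSF1 when proteins unfold. In microglia both programmes are known to be induced by enzymatic dissociation of brain tissue as well as by stimuli in the living animal, and these libraries hold no sample that separates the one from the other.

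Upstream sequence was available for 31 of the 38 members (RefSeq, GRCm38.p6), namely for 24 immediate early and 7 heat shock genes. Sequences were searched on both strands in the 250 bases before the start of each gene. The 6 letters TGACGT, the core that CREB binds, were found in 6 of the 24 immediate early members (25%: Fos, Egr2, Dusp1, Dusp5, Btg1 and Btg2) and in 0 of the 7 heat shock members, against 7.29% of all 27025 genes with a sequence. A pair of heat shock element units, GAANNTTC or TTCNNGAA, was found in 6 of the 7 heat shock members (85.7%: Hspa1a, Hspa1b, Hspb1, Hspe1, Dnaja1 and Hsph1), in 3 of the 24 immediate early members (Fosl2, Jun and Egr2) and in 14.5% of all genes. The CArG box, to which SRF binds, was found in 3 of the 24 immediate early members (12.5%: Egr2, Dusp5 and Zfp36) and in 1.62% of all genes. The AP-1 site TGANTCA was found in 0 of the 31 members and in 7.82% of all genes, and TATAAA in 4 of the 24 immediate early members (16.7%) and 14.3% of all genes. These matches describe letters and not binding. The sequences below are those of 4 immediate early genes and of 3 heat shock genes. In the former, TGACGT or its reverse complement ACGTCA is in capitals (overlapping as TGACGTCA in Dusp1 and Btg2). The 3 heat shock genes passed the genotype test within 1 microglial cluster, with only 2 mice per genotype. In these, the pair of heat shock element units is in capitals. Fos lies at chr12:85473640-85473889 (plus strand), Dusp1 at chr17:26508520-26508722 (minus strand, without the 47 bases that lie in an annotated exon), Btg1 at chr10:96616751-96617000 (plus strand) and Btg2 at chr1:134079156-134079405 (minus strand). Hspa1a lies at chr17:34972157-34972406 and Hspa1b at chr17:34959239-34959488 (both minus strand), and Hspb1 at chr5:135887669-135887918 (plus strand).
Fos: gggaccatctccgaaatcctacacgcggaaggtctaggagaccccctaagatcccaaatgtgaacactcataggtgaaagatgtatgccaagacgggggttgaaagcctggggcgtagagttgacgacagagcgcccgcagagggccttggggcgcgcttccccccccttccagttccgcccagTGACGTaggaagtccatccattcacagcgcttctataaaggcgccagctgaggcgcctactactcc
Dusp1: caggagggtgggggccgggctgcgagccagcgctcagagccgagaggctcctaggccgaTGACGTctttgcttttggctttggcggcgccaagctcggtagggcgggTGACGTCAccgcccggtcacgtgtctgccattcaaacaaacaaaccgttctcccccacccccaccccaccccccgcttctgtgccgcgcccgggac
Btg1: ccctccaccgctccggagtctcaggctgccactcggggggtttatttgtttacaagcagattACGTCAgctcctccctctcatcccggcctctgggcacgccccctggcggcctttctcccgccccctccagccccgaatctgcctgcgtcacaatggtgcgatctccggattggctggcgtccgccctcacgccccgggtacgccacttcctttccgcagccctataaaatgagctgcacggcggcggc
Btg2: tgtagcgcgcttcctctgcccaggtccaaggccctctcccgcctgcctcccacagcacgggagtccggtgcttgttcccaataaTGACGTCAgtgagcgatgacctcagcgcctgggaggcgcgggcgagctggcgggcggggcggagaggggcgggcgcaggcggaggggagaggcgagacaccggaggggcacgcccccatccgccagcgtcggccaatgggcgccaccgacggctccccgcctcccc
Hspa1a: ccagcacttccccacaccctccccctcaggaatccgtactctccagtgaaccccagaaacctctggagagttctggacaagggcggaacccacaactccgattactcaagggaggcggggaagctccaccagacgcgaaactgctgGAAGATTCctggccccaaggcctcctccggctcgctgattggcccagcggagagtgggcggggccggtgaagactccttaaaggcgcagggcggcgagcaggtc
Hspa1b: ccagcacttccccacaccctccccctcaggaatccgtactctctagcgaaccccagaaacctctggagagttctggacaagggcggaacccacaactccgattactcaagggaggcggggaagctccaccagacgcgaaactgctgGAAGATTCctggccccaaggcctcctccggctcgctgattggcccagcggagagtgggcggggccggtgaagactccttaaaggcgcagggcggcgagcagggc
Hspb1: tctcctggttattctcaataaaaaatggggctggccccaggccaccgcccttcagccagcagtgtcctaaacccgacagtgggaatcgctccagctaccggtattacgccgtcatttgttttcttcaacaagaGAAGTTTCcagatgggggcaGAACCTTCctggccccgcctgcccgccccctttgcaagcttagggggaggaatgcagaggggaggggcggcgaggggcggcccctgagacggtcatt

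The element in Fos lay 66 to 61 bases before the start. The upstream windows of Hspa1a and Hspa1b, neighbouring genes for the inducible chaperone HSP70, differed at 3 of 250 bases (98.8% identity) as C44T, T47C and T249G, counted from the 5′ end of the Hspa1a window with the Hspa1a base first. Both hold GAAGATTC 104 to 97 bases before the start. Because the libraries count the 3′ ends of transcripts, the annotated transcripts were also compared. Of 403 windows of 98 bases in the last 500 bases of Hspa1a, 0 were found in Hspa1b, whereas 1363 of the 2870 windows of the whole Hspa1a transcript (47.5%) were. UMIs of the pair can therefore be told apart near the annotated 3′ ends and only in part elsewhere.

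The libraries held 76943248 to 99559644 UMIs (unique molecular identifiers, which count each captured RNA molecule once) in 8284 to 11554 barcodes, and 8170 to 11427 cells passed the study's limits. Pairs of libraries shared 31 to 46 barcodes. Clusters were formed without the 38 members and without 1197 genes that differed between genotypes. The 39636 cells of the 7 clusters counted as microglia had medians of 6226 to 7067 UMIs, and a summed level of 11 microglial markers of 17650 and 18520 CPM (UMIs per 1000000 of those summed) in PRMT1FL mice against 16300 and 16180 in PRMT1Cx3cr1-KO mice. Prmt1 was at 93.5 and 86.2 CPM in PRMT1FL mice against 69.8 and 67.7 in PRMT1Cx3cr1-KO mice, lower in both (log2 fold change −0.39, SE 0.07, adjusted p = 0.0791 from edgeR, quasi-likelihood F test, Benjamini-Hochberg). Signals of other cells and of a microglial state moved with mouse or genotype within these clusters. The summed level of 5 erythroid markers was 242 and 94.0 CPM in PRMT1FL mice but 0.0614 and 0.0214 in PRMT1Cx3cr1-KO mice. That of 8 border-associated macrophage markers was 34.5 and 33.7 against 60.6 and 158. MHC class II genes mark a microglial population in the study, and the sum of 4 of them was 1077 and 1360 against 399 and 140. The part of these signals in the results that follow was not tested.

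The members were first asked whether their level in microglia as a whole differed between PRMT1FL and PRMT1Cx3cr1-KO mice. Levels are UMIs summed over the microglia of a mouse and given as CPM after TMM scaling, which equalizes the typical gene between samples, and they count transcripts at the 3′ end, so they are compared between samples and not between genes. No member passed the test. In the sums over microglia, 0 of 38 members passed an adjusted p of 0.05 (edgeR, Benjamini-Hochberg over 13882 genes), against 0.454% of all genes tested, and 6 of 38 had an unadjusted p under 0.05 against 19.6% of all genes. DESeq2 called 2 members, Dusp1 and Klf2, against 3.38% of all genes. The 2 PRMT1FL and the 2 PRMT1Cx3cr1-KO values did not overlap for 12 of 38 members, against 53.7% of all genes, and 15 of 38 had a positive log2 fold change, against 49.0%. Leaving out 1 mouse takes the spread from the other genotype's pair alone. For the summed AP-1 genes the SD was 221 CPM in PRMT1FL mice and 1368 in PRMT1Cx3cr1-KO mice. Counts without 1 mouse therefore cannot separate the influence of that mouse from the change in spread. Without PRMT1Cx3cr1-KO mouse 1, 17 members passed in edgeR (against 18.1% of all genes), 1 of them higher in PRMT1Cx3cr1-KO, and without PRMT1Cx3cr1-KO mouse 2, 14 passed (against 5.97%), 11 of them higher; without PRMT1FL mouse 1 or 2 the count was 0 (against 0.0282 and 0.0281%). Without a filter on low counts 9 members passed (against 8.02%) and with all filtered cells 1 (against 5.08%). A sum over cells cannot tell fewer cells that express a gene from less RNA in each cell.

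Among the AP-1 genes, which encode the Fos and Jun proteins that pair to bind DNA, Fos was at 1096 and 966 CPM in PRMT1FL mice against 1385 and 982 in PRMT1Cx3cr1-KO mice. PRMT1Cx3cr1-KO mouse 1 stood above the rest and mouse 2 lay within the range of the control mice, so that the groups overlapped (log2 fold change 0.20, SE 0.17). Jun was at 1242 and 1072 in PRMT1FL mice against 1288 and 900 in PRMT1Cx3cr1-KO mice, Junb at 2022 and 2054 against 2208 and 1469, and Jund at 989 and 966 against 1018 and 657. For these 3 Jun genes PRMT1Cx3cr1-KO mouse 1 was the highest of the 4 mice and PRMT1Cx3cr1-KO mouse 2 the lowest. Their log2 fold changes were −0.08 (SE 0.17), −0.15 (SE 0.18) and −0.22 (SE 0.19), and the adjusted p-values of the 4 named AP-1 genes were 0.548 to 0.837 (edgeR). Egr1, a zinc finger transcription factor, showed the same order of mice, at 423 and 375 CPM in PRMT1FL mice against 543 and 282 in PRMT1Cx3cr1-KO mice (log2 fold change 0.05, SE 0.28, adjusted p = 0.947 from edgeR). Egr2 was at 21.6 and 20.8 against 19.0 and 10.6 (−0.52, SE 0.25, adjusted p = 0.307 from edgeR), and its groups did not overlap, with PRMT1Cx3cr1-KO mouse 2 again the lowest. Without PRMT1Cx3cr1-KO mouse 1 the Egr2 value was −0.99 and without mouse 2 −0.16, so that its size rests on the latter mouse.

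The early response and feedback genes held the member with the smallest p. Dusp1, which dephosphorylates MAP kinases, was at 460 and 456 CPM in PRMT1FL mice against 562 and 580 in PRMT1Cx3cr1-KO mice. Both PRMT1Cx3cr1-KO mice lay above both PRMT1FL mice, by more than the spread within either group (log2 fold change 0.32, SE 0.07), and the adjusted p was 0.0921 with edgeR and 0.000922 with DESeq2. Ier3, an early response gene that affects cell survival, was at 453 and 425 against 738 and 423, so that its log2 fold change of 0.40 (SE 0.24, adjusted p = 0.400 from edgeR) came from PRMT1Cx3cr1-KO mouse 1, and without that mouse it was −0.05. Zfp36, which speeds the decay of cytokine mRNAs, was at 1139 and 1265 against 1164 and 939 (−0.19, SE 0.12, adjusted p = 0.423 from edgeR), and its groups overlapped. Rhob, a small GTPase, was at 1196 and 1216 against 1105 and 927 (−0.25, SE 0.10, adjusted p = 0.252 from edgeR), with both PRMT1Cx3cr1-KO mice below both PRMT1FL mice. Klf2, a factor that restrains inflammatory genes, was at 447 and 521 in PRMT1FL mice against 403 and 324 in PRMT1Cx3cr1-KO mice, lower in both (−0.41, SE 0.13, adjusted p = 0.164 with edgeR and 0.0356 with DESeq2). Cebpb, a factor of myeloid gene expression, was at 380 and 436 against 471 and 453 (0.18, SE 0.09, adjusted p = 0.311 from edgeR), with groups that did not overlap.

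With TMM scaling all 10 heat shock genes had log2 fold changes below 0, from −0.72 for Hspa1b to near 0 for Dnajb1. Of all genes tested, 49.0% lay above 0. In this subgroup 0 of 10 passed the test. Hspa1b was at 59.7 and 90.3 CPM in PRMT1FL mice against 37.0 and 54.2 in PRMT1Cx3cr1-KO mice (SE 0.24, adjusted p = 0.184 from edgeR). Its log2 fold change was −0.39 without PRMT1FL mouse 2 and −1.02 without PRMT1Cx3cr1-KO mouse 2. The lower PRMT1FL mouse was close to the higher PRMT1Cx3cr1-KO mouse, and the replicates of each genotype differed widely. Hspa8, the HSP70 made at all times, varied little, at 1351 and 1362 against 1256 and 1230 (−0.13, SE 0.07, adjusted p = 0.387 from edgeR), as did Hsp90ab1, an HSP90 made at all times, at 1407 and 1379 against 1308 and 1334 (−0.08, SE 0.07, adjusted p = 0.599 from edgeR). The summed level of the 10 genes was 3606 and 3714 in PRMT1FL mice against 3350 and 3433 in PRMT1Cx3cr1-KO mice after TMM scaling. The log2 ratio of −0.11 shrank to −0.036 when each library was divided by its total. The sums were then 3517 and 3619 against 3373 and 3588, and the groups overlapped. The remaining 23 members had log2 fold changes between −0.43 (Hspb1) and 0.34 (Gadd45b), with adjusted p-values from 0.203 (Hsph1) to 0.998 (Nr4a2) in edgeR.

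**Figure D1:**
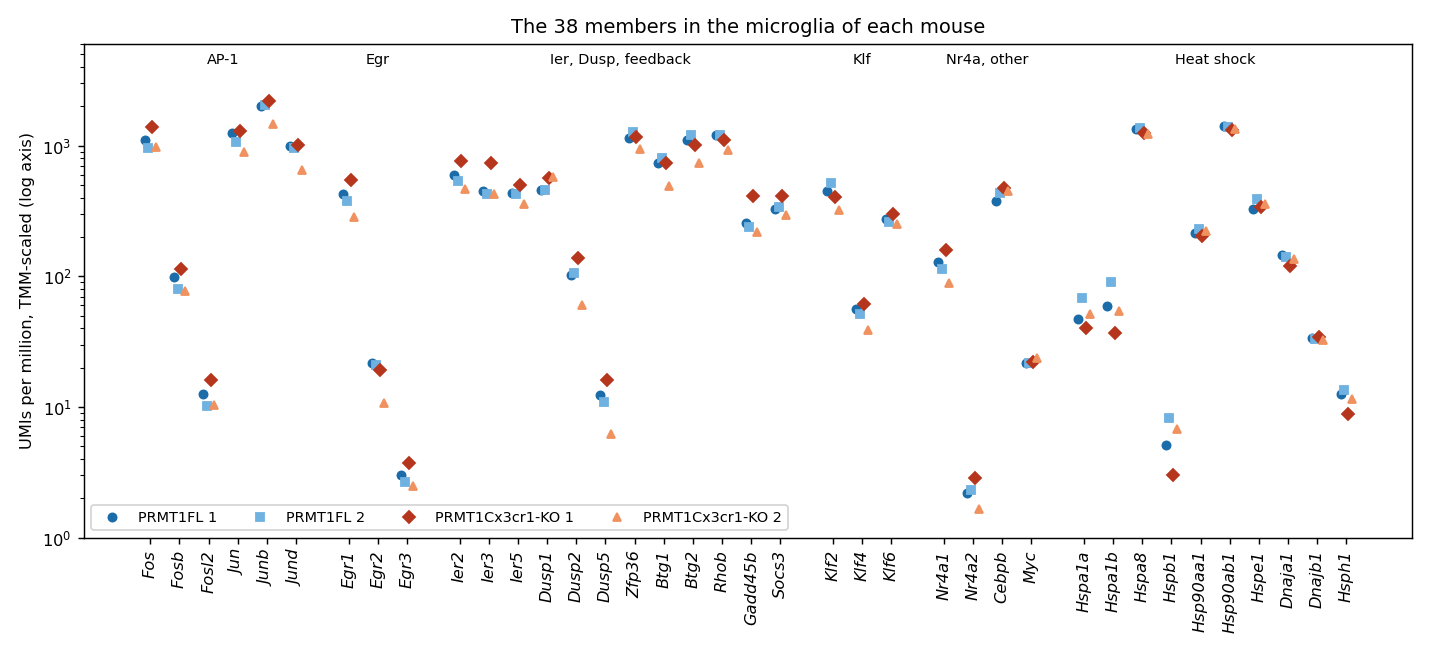
CPM (TMM-scaled, log axis) of the 38 members, by subgroup along the x axis, in the microglia of 2 PRMT1FL mice (circles and squares) and 2 PRMT1Cx3cr1-KO mice (diamonds and triangles); each point is 1 mouse. PRMT1Cx3cr1-KO mouse 1 is the highest and mouse 2 the lowest for Jun, Junb, Jund and Egr1, and both lie above the PRMT1FL mice for Dusp1.

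Summed over their members, the AP-1, Egr and feedback subgroups had the same highest and the same lowest mouse. The AP-1 sum was 5461 and 5148 CPM in PRMT1FL mice against 6029 and 4095 in PRMT1Cx3cr1-KO mice. The Egr sum was 448 and 399 against 566 and 295, and the sum of the 12 early response and feedback genes was 6813 and 7027 against 7556 and 5505. In each, PRMT1Cx3cr1-KO mouse 1 was the highest and mouse 2 the lowest of the 4. The spread within PRMT1Cx3cr1-KO mice thus exceeded the difference between genotypes. These sums also depend on the mix of cells in each mouse, for which values are given with the clusters below. The log2 ratio of PRMT1Cx3cr1-KO over PRMT1FL for AP-1 was −0.07 with TMM scaling, 0.0012 with library totals, −0.37 without PRMT1Cx3cr1-KO mouse 1 and 0.18 without mouse 2. For Egr it was 0.02, and it was −0.52 and 0.42 without these mice in turn. For the feedback genes it was −0.08, and −0.33 and 0.13. The Klf sum was 778 and 833 against 762 and 612 (log2 ratio −0.23), lower in both PRMT1Cx3cr1-KO mice with TMM scaling. With library totals it was 759 and 812 against 768 and 640 (−0.158), and the groups overlapped. The sum of the 4 other factors was 532 and 573 against 655 and 568 with TMM scaling (0.15). With 2 mice in each group an exact permutation test of a single value cannot give a 2-sided p below 0.333, so that no sum was tested.

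The next comparison asked in which microglia the members were expressed. As the clusters were made from other genes of the same cells, levels between clusters are a description. Cluster 0 (12179 cells) was led by Txnip, Gdf15 and Adgrg1, and cluster 1 (6235 cells) by the chemokine gene Cxcl2, Tnfsf9 and Il12b. Cluster 2 (10593 cells) was led by Gpnmb, Spp1 and Baiap2l2, and cluster 3 (7761 cells) by haemoglobin genes and Ube2c. Leading genes were ranked over the cells of all 4 mice together. Erythroid markers were nearly absent from the microglia of PRMT1Cx3cr1-KO mice (0.0614 and 0.0214 CPM), so haemoglobin genes do not mark cluster 3 there. Cluster 5 (1769 cells) was proliferating-like and cluster 7 (613 cells) interferon-responsive-like by markers. Cluster 8 (486 cells, led by Ms4a7 and Clec12a) had 374 of its cells in PRMT1Cx3cr1-KO mouse 2 and too few in the others to be compared.

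Immediate early genes separated these clusters in every mouse. The AP-1 sum in cluster 0 was 8747 and 7516 CPM in PRMT1FL mice against 9557 and 6959 in PRMT1Cx3cr1-KO mice, whereas in cluster 3 it was 476, 482, 533 and 456. The 4 mice of cluster 3 thus lay far below the 4 of cluster 0, and the mean log2 ratio was 4.07 with TMM scaling and 4.74 with library totals. Over the 28 immediate early members the median log2 ratio of cluster 0 over cluster 3 was 3.43, and 27 of 28 exceeded 1, with medians of 4.20 for AP-1, 3.69 for Klf and 3.36 for the feedback genes; over all 13882 genes tested the median was 0.13 and 17.1% exceeded 1. With library totals these became 4.09 (28 of 28) for the immediate early members and 0.54 (31.7%) for all genes. The steepest members were Btg2, an antiproliferative gene, at 1698 ± 343 CPM (mean and SD of 4 mice) in cluster 0 and 56.1 ± 9.41 in cluster 3 (log2 ratio 4.89), and Fosb (4.84), Jun (4.73) and Nr4a1 (4.73). Nr4a2 (0.96), Egr2 (1.04), Myc (1.47) and Egr3 (1.52) differed least, and as ratios are of the level plus 1, those of low genes such as Nr4a2 and Egr3 are understated. Clusters 0 and 3 had like depth, with medians of 3884.5 to 4638 and 3833 to 4866 UMIs per cell, whereas clusters 1 and 2 had medians of 8343 to 13316.

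The subgroups did not peak in the same cluster. AP-1 sums were alike in clusters 0 and 1, at means of 8195 ± 1176 and 7886 ± 853 CPM over the 4 mice (SD) with TMM scaling, where the mice of the clusters overlapped. With library totals the AP-1 sum was higher in cluster 0 in each mouse, at 9709 ± 1330 against 7620 ± 548, so that this comparison rests on the scaling. Under both scalings Egr sums were higher in cluster 1, at 1014, 1019, 961 and 715, than in cluster 0, at 597, 463, 717 and 422, in each mouse. Ier2 (1411 against 563), Dusp2 (305 against 68.3), Gadd45b (702 against 216) and Socs3 (721 against 304), an inhibitor of cytokine signalling, also had higher means in cluster 1 than in cluster 0. Klf sums ran the other way, at 1618, 1492, 1377 and 1002 in cluster 0 and 636, 841, 700 and 764 in cluster 1, and Klf2 was at 783 against 412, Klf6 at 506 against 272 and Rhob at 1813 against 1186. Clusters 5 and 7 lay between, with AP-1 means of 3034 and 5739. Cluster 1 held 15.2 and 13.5% of the microglia of PRMT1FL mice against 21.7 and 12.2% of those of PRMT1Cx3cr1-KO mice. The part of this share in the order of the mice in sums over microglia was not tested.

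The heat shock sum was nearly level over the clusters, at means of 3041 in cluster 0, 3938 in cluster 1, 3476 in cluster 2 and 4327 in cluster 3 with TMM scaling, and with library totals at 3606, 3811, 3394 and 3216, so that the order of clusters 0 and 3 turned with the scaling (log2 ratio −0.51 and 0.16). The members differed among themselves. Of the 10, 3 were far higher in cluster 0 than in cluster 3. Hspa1a was at 118 ± 25.9 in cluster 0 and 3.81 in cluster 3 (log2 ratio 4.65), Hspa1b at 136 and 3.91 (4.74), and Hspb1, a small heat shock protein, at 6.86 and 0.50 (2.26). Unlike AP-1 genes, Hspa1a and Hspa1b were low in cluster 1, at 19.7 and 19.1. They were at 79.1 and 109 in cluster 7. In cluster 8 both were higher than in cluster 0 in each mouse. There Hspa1a was at 636 and 286 in PRMT1FL mice against 191 and 153 in PRMT1Cx3cr1-KO mice. Hspa1b was at 722 and 299 against 155 and 227. These values rest on few cells, with 33 and 15 in PRMT1FL mice against 64 and 374. Dnajb1, a co-chaperone of HSP70, had a log2 ratio of 1.03 (1.67 with library totals). Hsp90aa1, an inducible HSP90, and Hsph1, an HSP110, were level with TMM scaling, at 0.0011 and 0.05, and at 0.67 each with library totals. Hspe1, a mitochondrial chaperonin, and Hsp90ab1 were lower in cluster 0 than in cluster 3 under both scalings (log2 ratios −1.44 and −0.82 with TMM, −0.77 and −0.15 with library totals). Hspa8 (−0.42) and Dnaja1 (−0.20) turned to 0.25 and 0.47 with library totals, so their direction rests on the scaling.

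**Figure D2:**
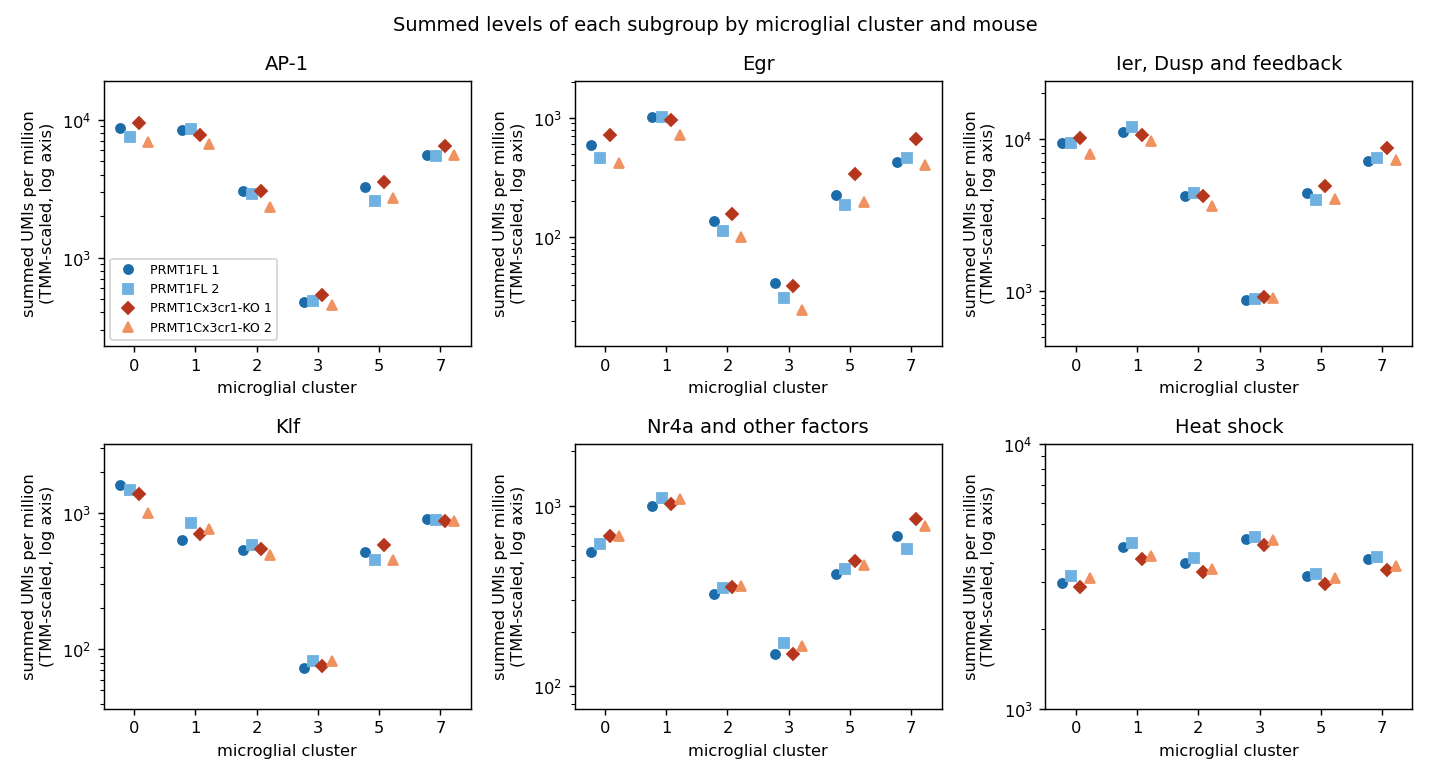
Summed CPM (TMM-scaled, log axis, scale set for each panel) of the 6 subgroups in microglial clusters 0, 1, 2, 3, 5 and 7; each point is 1 mouse. AP-1, Egr, feedback, Klf and other factors fall in cluster 3 in each mouse, where the AP-1 sum is 456 to 533, and the heat shock sum stays between 2876 and 4432 over all clusters.

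Single cells were then compared after each was thinned to 2000 UMIs, which kept 10034 and 7235 cells of PRMT1FL mice and 9142 and 9697 of PRMT1Cx3cr1-KO mice. The 28 immediate early members together gave a median of 23 and 22 UMIs per cell in PRMT1FL mice against 27 and 16 in PRMT1Cx3cr1-KO mice. The distribution was wide. Cells with at most 5 such UMIs made up 23.4 and 23.7% in PRMT1FL mice against 21.2 and 30.9% in PRMT1Cx3cr1-KO mice, and cells with more than 20 made up 53.6, 52.3, 58.9 and 43.9%. In cluster 3 the median was 2 in each mouse and 92.3 to 93.3% of cells had at most 5, whereas in cluster 0 the medians were 47, 42, 51 and 39 and 4.11 to 7.6% had at most 5. The heat shock sum had a median of 6 in all 4 mice and in cluster 3, and of 6 or 7 in cluster 0.

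UMIs of inducible HSP70 were found in a small share of cells and were spread unevenly. In thinned cells, Hspa1a had a UMI in 9.75, 11.8, 9.79 and 11.6% of cluster 0 cells and in 0.173 to 0.368% of cluster 3 cells, and without thinning in 12.2 to 15.7% and 0.655 to 1.22%. Over all thinned microglia it was found in 4.78 and 6.33% of cells in PRMT1FL mice against 4.62 and 5.81% in PRMT1Cx3cr1-KO mice, with up to 24 UMIs in a cell. Hspa1b was found in 4.87 and 7.45% against 3.45 and 5.20%, with up to 31. The variance over the mean of the thinned counts was 5.07 for Hspa1a and 6.53 for Hspa1b (means of 4 mice), against a median of 1.03 over all genes with enough counts. Jun (7.62), Fos (7.11) and Klf2 (6.01) had ratios of like size, but with a UMI in 27.1 to 61.8% of thinned cells. Hspb1 had a ratio of 4.31, with a UMI in 0.317 to 0.912% of thinned cells. Hspe1 (1.09) and Hsph1 (1.07) were near the median of all genes. Dnaja1 (1.23) was above that median but below the 95th percentile of all genes, which was 1.29 to 1.3 in the 4 mice. Hsp90aa1 (1.77), Hspa8 (1.66), Hsp90ab1 (1.34) and Dnajb1 had mean ratios above this percentile. Fos had a UMI in 56.1 to 75.3% of cluster 0 cells, 85.9 to 88.0% of cluster 1 cells and 4.85 to 8.03% of cluster 3 cells, and without thinning in 65.1 to 78.4, 97.2 to 98.4 and 11.2 to 16.1%.

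**Figure D3:**
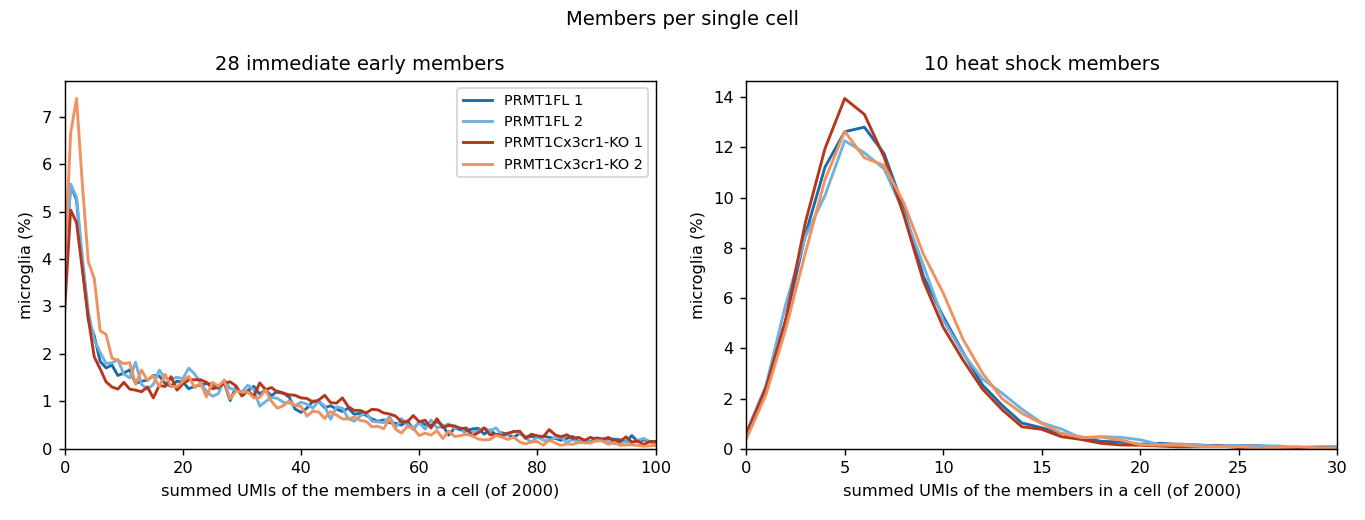
Share of microglia (%, y axis) with each summed number of UMIs (x axis) of the 28 immediate early members (left) and the 10 heat shock members (right), in cells thinned to 2000 UMIs; each line is 1 mouse. The immediate early sum spreads from 0 to over 80 with a peak at low values that is highest in PRMT1Cx3cr1-KO mouse 2, and the heat shock sum has a single peak around its median of 6.

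Which subgroups moved together was asked by correlating members over single cells within each mouse, on log2 of the thinned count plus 1. Values are Pearson r over the 7235 to 10034 cells of a mouse, given as a description, since cells of a mouse share a library. For this, 34 members had a UMI in at least 1% of cells in every mouse; Egr3, Dusp5, Nr4a2 and Hspb1 did not. Over all pairs of 8512 such genes the median r was 0.00132 to 0.00176 in the 4 mice and the 99.9th percentile 0.0972 to 0.104. AP-1 genes and the feedback genes formed a single block. The mean r was 0.302 among AP-1 genes (SD 0.0142 over 4 mice), 0.322 among the feedback genes (SD 0.00882) and 0.312 between both (SD 0.00775), and the sums of these subgroups had an r of 0.861. The 5 pairs of highest mean r over all members were Junb with Zfp36 (0.688), Junb with Btg2 (0.617), Jun with Jund (0.608), Fos with Junb (0.598) and Zfp36 with Btg2 (0.584). The pair of Junb and Zfp36 had an r of 0.687, 0.705, 0.679 and 0.683 in the 4 mice.

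Egr and Klf genes each moved with AP-1 and less with each other. The mean r was 0.195 between AP-1 and Egr, 0.217 between AP-1 and Klf and 0.0789 between Egr and Klf, and for the sums 0.535, 0.526 and 0.227. Egr1 rose most closely with Ier2 (0.578), whereas Egr1 and Egr2, the sole Egr pair tested, had an r of 0.0688. Egr2 had a UMI in only 1.87 to 3.99% of thinned cells and Klf4 in 5.75 to 8.84%. The part of such sparse counts in the low values of Egr2 and Klf4 pairs was not tested. Among the Klf genes the mean was 0.239, with 0.350 for Klf2 and Klf6, and Klf2 with Rhob had 0.406. Nr4a1, Cebpb and Myc had a mean of 0.170 with AP-1 and 0.104 among themselves. Centring each gene within its cluster lowered the AP-1 mean to 0.194, the mean of AP-1 with the feedback genes to 0.186, with Egr to 0.127 and with Klf to 0.132, and left that of Egr with Klf at 0.0333, so that part of the shared movement lay between clusters and part within them.

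Heat shock genes correlated less. The mean r was 0.0599 among the 9 kept heat shock members (SD 0.0104) and 0.0331 between them and AP-1 (SD 0.00988), against a 95th percentile of single pairs of all genes of 0.0251 to 0.0279. The highest pair by far was Hspa1a with Hspa1b, at 0.528, 0.614, 0.469 and 0.492 in the 4 mice (mean 0.526, and 0.511 centred within clusters). The pair next in order was Hspa1a with Hsp90aa1, at 0.159, and Hspa1b with Hsp90aa1 had the same mean. Hspa1a with Jun had 0.173, and these pairs too lay above the 99.9th percentile of all pairs. Hspe1 ran against AP-1 genes, at −0.124 with Jund and −0.119 with Jun, which became −0.04 and −0.03 once centred within clusters.

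**Figure D4:**
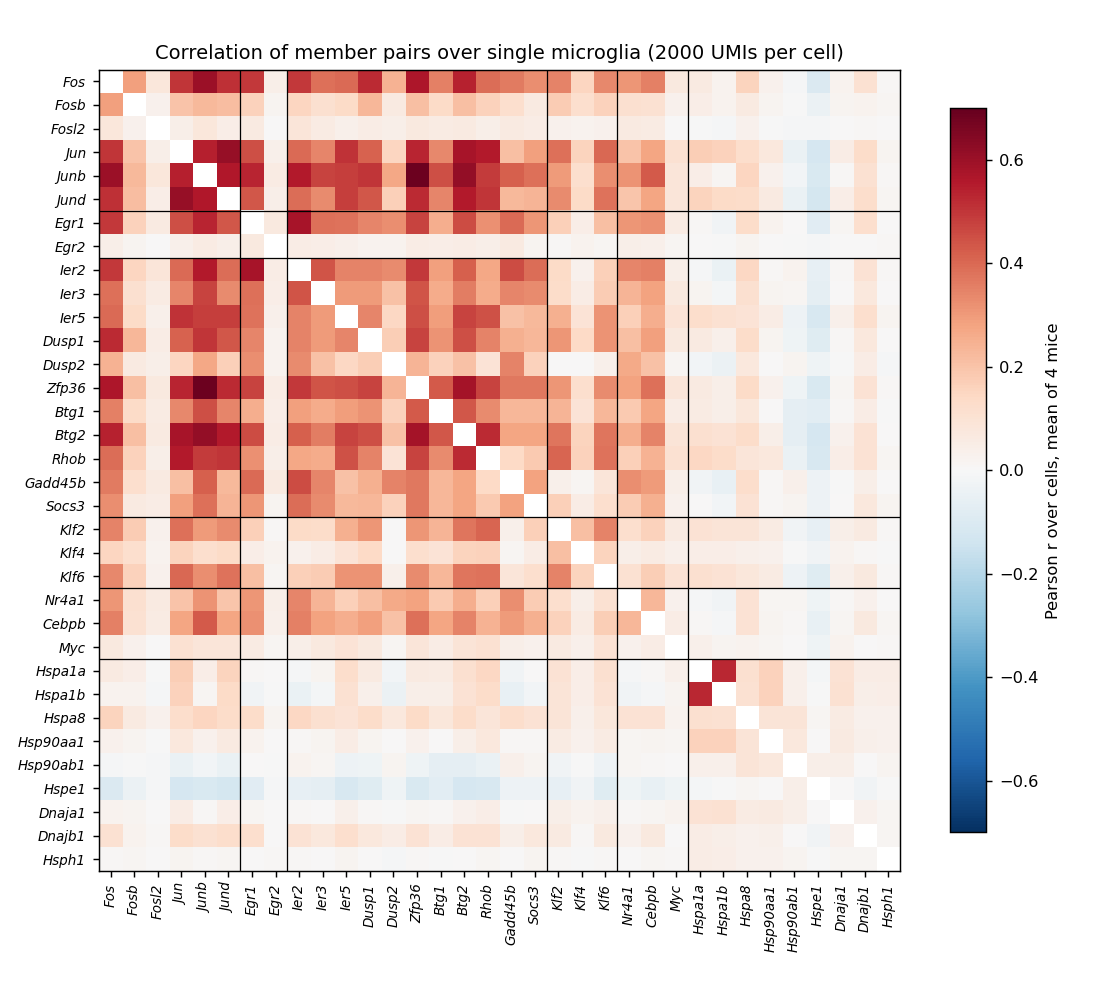
Pearson r over single microglia (colour, blue negative and red positive, mean of 4 mice) for each pair of the 34 members kept, ordered by subgroup on both axes, with lines between subgroups; cells were thinned to 2000 UMIs. AP-1, Egr1 and the early response and feedback genes form a red block with Junb and Zfp36 at 0.688, and among heat shock genes Hspa1a and Hspa1b stand out at 0.526.

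The genotypes were also compared within each of the 6 clusters with at least 50 cells in every mouse. Cluster 0 had the highest share of all genes called and the most members called. There 10 of 38 members passed an adjusted p of 0.05 (edgeR, Benjamini-Hochberg over 12107 genes), against 10.4% of all genes tested, with 4 that rose (5.57% of all genes) and 6 that fell (4.83%) in PRMT1Cx3cr1-KO mice. These were 0 of 6 AP-1, 0 of 3 Egr, 5 of 12 feedback, 1 of 3 Klf, 1 of 4 other and 3 of 10 heat shock members. The share of microglia in cluster 0 was 30.5 and 34.6% in PRMT1FL mice against 30.8 and 28.1% in PRMT1Cx3cr1-KO mice, and their median depth was 4022, 4638, 3884.5 and 4349 UMIs. Ribosomal genes took 14 and 14% of the UMIs against 12.6 and 11.6%, the microglial markers were at 20890 and 21730 against 18270 and 18350 CPM, border-associated macrophage markers at 18.9 and 19.4 against 27.7 and 66.1, and erythroid markers at 2.03 CPM or below. The 4 MHC class II genes were at 1316 and 1526 CPM in PRMT1FL mice against 397.3 and 120.5 in PRMT1Cx3cr1-KO mice. The 6 homeostatic ones among the microglial markers were at 6009 and 6218 against 4790 and 4808. The part of these differences in the calls was not tested.

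Ier3 rose most in cluster 0. It was at 394 and 341 CPM in PRMT1FL mice against 945 and 584 in PRMT1Cx3cr1-KO mice (log2 fold change 1.05, SE 0.19, adjusted p = 0.00864 from edgeR). Gadd45b, a stress-induced gene of growth arrest, was at 151 and 160 against 326 and 225 (0.82, SE 0.15, adjusted p = 0.00867 from edgeR). For both, each PRMT1Cx3cr1-KO mouse was above each PRMT1FL mouse, and PRMT1Cx3cr1-KO mouse 1 was the highest. Dusp1 was at 753 and 640 against 1006 and 958 (0.49, SE 0.10, adjusted p = 0.0174 from edgeR), and Myc, a transcription factor of cell growth, at 30.5 and 28 against 37.8 and 42.4 (0.44, SE 0.09, adjusted p = 0.0171 from edgeR). The groups of these also did not overlap. AP-1 genes did not pass, although Fos was at 1574 and 1206 against 2242 and 1620 and Fosb at 112 and 79.3 against 178 and 110. Jun was at 2525 and 1909 against 2412 and 1740.

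Hspa1b fell in cluster 0, from 154 and 203 CPM in PRMT1FL mice to 85.9 and 103 in PRMT1Cx3cr1-KO mice (log2 fold change −0.93, SE 0.13, adjusted p = 0.00282 from edgeR). Hspa1a, its neighbour, was at 118 and 154 against 94.6 and 106 (−0.45, SE 0.12, adjusted p = 0.0409 from edgeR), and Hspb1 at 7.85 and 11.6 against 2.72 and 5.27 (−1.27, SE 0.27, adjusted p = 0.0197 from edgeR). In all 3 genes PRMT1FL mouse 2 was the highest and PRMT1Cx3cr1-KO mouse 1 the lowest, and the groups did not overlap. The share of thinned cluster 0 cells with a UMI of Hspa1a was alike, at 9.75 and 11.8% in PRMT1FL mice against 9.79 and 11.6%. For Hspa1b it was 9.98 and 13.9% against 7.29 and 9.2%, and for Hspb1 0.685 and 1.38% against 0.39 and 0.739%. Klf2 was at 992 and 961 against 709 and 468 (−0.74, SE 0.16, adjusted p = 0.0204 from edgeR), Btg2 at 1945 and 1999 against 1582 and 1266 (−0.48, SE 0.12, adjusted p = 0.0319 from edgeR) and Rhob at 2164 and 2043 against 1695 and 1352 (−0.47, SE 0.12, adjusted p = 0.0360 from edgeR). For these 3 genes PRMT1Cx3cr1-KO mouse 2 was the lowest. Heat shock genes that every cell makes did not pass, with log2 fold changes of −0.05 for Hspa8 and 0.16 for Hsp90ab1.

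The 10 calls kept their sign without each mouse in turn, and all 10 held without barcodes of high doublet score. They also passed at a raised clustering resolution (14.4% of all genes called). There the matching cluster had 8669 cells, of which 8665 were cluster 0 cells, 71.1% of that cluster. Both refits thus used the same mice and mostly the same cells, and are not separate support. Fits without 1 mouse take the spread from the other genotype's pair alone. Their counts cannot separate the influence of that mouse from the change in spread. Without PRMT1FL mouse 1 the calls were 2 of these 10 (Hspa1b and Hspa1a), without PRMT1FL mouse 2 only Hspa1b, without PRMT1Cx3cr1-KO mouse 1 all 10 and without PRMT1Cx3cr1-KO mouse 2 8 of them. Over all 38 members these fits called 2, 1, 17 and 18, against 2.05, 1.79, 18.2 and 7.88% of all genes, so that the count for cluster 0 rests on which mice enter. The sizes moved as well, with smaller changes without PRMT1Cx3cr1-KO mouse 1 for Ier3 (0.66), Gadd45b (0.53) and Hspb1 (−0.88), without PRMT1Cx3cr1-KO mouse 2 for Klf2 (−0.47) and without PRMT1FL mouse 2 for Hspa1a (−0.25).

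In the other clusters fewer members passed. In cluster 7, 3 of 35 members tested rose, against 0.904% of all genes. Gadd45b was at 296 and 308 CPM in PRMT1FL mice against 537 and 370 in PRMT1Cx3cr1-KO mice (log2 fold change 0.62, SE 0.14, adjusted p = 0.0256 from edgeR), Dusp1 at 453 and 491 against 580 and 820 (0.58, SE 0.14, adjusted p = 0.0273 from edgeR), and Socs3 at 425 and 355 against 549 and 535 (0.50, SE 0.12, adjusted p = 0.0459 from edgeR). The groups of all 3 did not overlap, but the sizes moved with the mouse left out. Gadd45b was at 0.31 without PRMT1Cx3cr1-KO mouse 1, and Dusp1 at 0.31 without PRMT1Cx3cr1-KO mouse 2. Socs3 ran from 0.388 to 0.606 without each mouse in turn. Clusters 1, 2, 3 and 5 had 0 members past the threshold (edgeR), against 1.58, 0.815, 3.52 and 0.298% of all genes. An unadjusted p under 0.05 (edgeR) was reached by 12 of 38, 5 of 38, 4 of 34 and 2 of 37 members tested. Over all genes it was reached by 1944 of 11869, 2060 of 12399, 1722 of 10237 and 1033 of 10747.

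Whether the genotype difference itself differed between cluster 0 and the other microglia was tested by an interaction term, which was added after the cluster results had been seen. It passed for 14 of 38 members (edgeR, Benjamini-Hochberg over 13364 genes), against 8.75% of all genes. For 9 of these the change was more positive in cluster 0. Ier3 differed by 0.88 (log2 fold change 1.05 in cluster 0 and 0.19 in the other microglia), Fosb by 0.68 (0.58 and −0.11), Gadd45b by 0.65 (0.82 and 0.22), Myc by 0.54 (0.44 and −0.09), Dusp2 by 0.51 (0.28 and −0.15), Ier2 by 0.49 (0.48 and 0.02), Fos by 0.39 (0.47 and 0.09), Hsp90ab1 by 0.30 (0.16 and −0.14) and Socs3 by 0.29 (0.29 and 0.01). For 5 it was more negative: Hspb1 by −1.15 (−1.27 and −0.12), Klf2 by −0.66 (−0.74 and −0.11), Hspa1b by −0.56 (−0.93 and −0.36), Rhob by −0.41 (−0.47 and −0.07) and Hspa1a by −0.39 (−0.45 and −0.06). Dusp1, Btg2, Jun, Junb and Egr1 did not pass this test. The other microglia were summed as 1 pool, whose mix differed between mice. Cluster 1 made up 15.2 and 13.5% of microglia in PRMT1FL mice against 21.7 and 12.2% in PRMT1Cx3cr1-KO mice. The part of this mix in the result was not tested. Of the 14, Gadd45b and Socs3 also passed in cluster 7, which lies in the pool (log2 fold change 0.62 and 0.50). The term therefore does not set cluster 0 apart from each other cluster. Fits of the term without 1 mouse take the spread from the other genotype's pair alone. Their counts do not test whether the calls hold. Of the 14, 12 passed without PRMT1FL mouse 1, 13 without PRMT1FL mouse 2, 14 when PRMT1Cx3cr1-KO mouse 1 was left out and 9 when mouse 2 of that genotype was (edgeR), against 5.35, 3.89, 14.3 and 6.93% of all genes. In the microglia outside cluster 0, 0 of 38 members passed (edgeR), against 0.224% of all genes. There 2 of 38 members and 2278 of 13401 genes had an unadjusted p under 0.05 (edgeR).

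**Figure D5:**
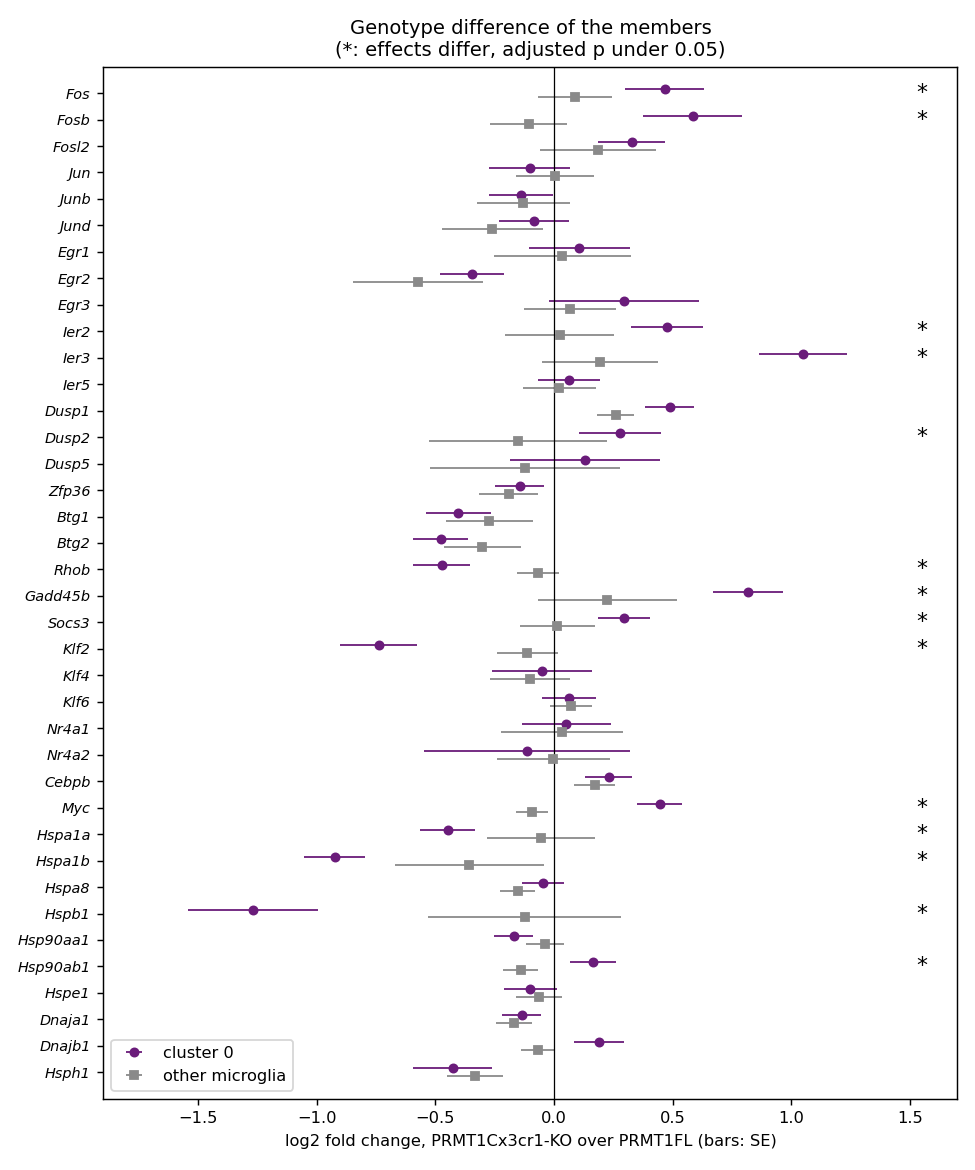
Log2 fold change of PRMT1Cx3cr1-KO over PRMT1FL (x axis) of the 38 members in cluster 0 (circles) and in the other microglia (squares), with bars of 1 SE; an asterisk marks the 14 members whose difference of effects passed an adjusted p of 0.05. Ier3 and Gadd45b lie at 1.05 and 0.82 in cluster 0, and Hspb1 and Hspa1b at −1.27 and −0.93.

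Other genes of these pathways were taken from lists. Of 35 further immediate early genes, 31 were tested in cluster 0, where 7 rose (against 5.57% of all genes) and 0 fell (against 4.83%). They were Dusp4 (log2 fold change 2.26), a MAP kinase phosphatase, Gadd45a (1.87), Ppp1r15a (0.65), which restores translation after stress, Cebpd (0.64), Klf10 (0.57), Nfkbiz (0.52) and Sgk1 (0.48), with adjusted p-values from 0.000218 to 0.0404 in edgeR. Of 13 upstream regulators tested, which transmit the signals to these genes, 0 passed (edgeR). An unadjusted p under 0.05 (edgeR) was reached by 2 of the 13, against 3201 of 12107 genes. Of 35 other chaperones and heat shock regulators tested, 2 fell (against 4.83% of all genes) and 0 rose (against 5.57%). Those that fell were Cryab (−1.22, adjusted p = 0.0153 from edgeR), a small heat shock protein, and Stip1 (−0.35, adjusted p = 0.0342 from edgeR), which joins HSP70 to HSP90. Of 10 genes beyond the members known to be induced during isolation of microglia, 2 rose (against 5.57% of all genes). This list shares genes with that of the 35 further immediate early genes. Those that rose were Nfkbia (0.77, adjusted p = 0.00126 from edgeR), the inhibitor of NF-kB, and Nfkbiz, which is the call already counted above. Over all microglia 0 members of these lists rose and only Cryab fell, against 47 genes that rose and 16 that fell of 13882 tested.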

How the data were processed

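Single cells of 4 mice were profiled with droplet 3′ libraries (10x Genomics), 1 library per mouse. Per the labels and the study's methods, Cell Ranger 3.1.0 was run by the authors on mm10, and they deposited UMI counts per gene and barcode, without normalization; the submitters' processing notes also name Seurat 3.2.0 and Scanpy 1.5.2. Counting 3′ ends makes levels depend on how each gene's end is annotated and captured.

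The study's limits were applied, so that kept cells had 200 to 6000 genes and no more than 10% of mitochondrial UMIs. With scanpy 1.11.5, 2000 variable genes, without the members and the genes that differed between genotypes (p under 0.05 and log2 fold change over 1), were reduced to 20 components and clustered by the Leiden method at resolution 0.3. Clusters with at least 3 fixed markers of other cells among their 10 leading genes were left out. Erythroid markers did not count for this, and cluster 3, led by haemoglobin genes and Ube2c, was kept. Scrublet's own threshold marked at most 0.0386% of barcodes, so the highest scores, 0.8% per 1000 barcodes, were marked instead, and those barcodes were kept except where stated. UMIs were summed per mouse, and genotypes were compared with edgeR 4.0.16 (R 4.3.3; TMM, filterByExpr, quasi-likelihood test, Benjamini-Hochberg over all genes tested). CPM values use TMM library sizes. Where nothing more is said, n is 2 mice per genotype, and the labels do not name batches. For single-cell statistics each cell was thinned to 2000 UMIs and shallower cells were left out. The mean of members on log2 scale used a pseudocount of 1.

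Values in every mouse were given for members past the threshold and, in each subgroup, for the 2 of highest level and those of smallest p and largest change; other pathway genes were named where past the threshold. The 38 members, the lists and the tests were chosen with earlier results of these data known. Alternatives were DESeq2 1.42.0, other size factors, no filter on low counts, a replicate block, each mouse left out, other cells or limits, other depths of thinning and another clustering resolution. The pipeline was tested on simulated counts of 13886 genes for the genotype comparison over microglia, in which 200 genes were changed. Of those changed by 1 on the log2 scale 87% were called, and of those changed by 2 100%, with 7 false calls. The simulation gave all genes the same dispersion between mice and changed only genes above a limit on counts. Its shares therefore do not give the power for the members. Intervals of depth are not given for shares of cells, since they would cover counting error only.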

Additional observations from a re-analysis of the deposited data

Results flagged for a closer look

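The genotype effect on 14 members differed between cluster 0 and the pooled other microglia, whose mix of clusters differed between mice. This was an interaction term tested with edgeR over 13364 genes after the cluster results had been seen (8.75% of all genes passed). The log2 difference of the effects was 0.876 for Ier3 (adjusted p = 7.89e-07), 0.685 for Fosb (0.000136), 0.653 for Gadd45b (0.00207), 0.538 for Myc (0.00111), 0.514 for Dusp2 (0.0301), 0.49 for Ier2 (0.00145), 0.391 for Fos (0.00267), 0.303 for Hsp90ab1 (0.00807) and 0.294 for Socs3 (0.0103). It was −1.15 for Hspb1 (0.000483), −0.664 for Klf2 (0.00384), −0.557 for Hspa1b (0.0166), −0.41 for Rhob (0.000325) and −0.388 for Hspa1a (0.0233). Whether these calls hold with fewer mice could not be tested, since leaving out 1 mouse takes the spread from the other genotype's pair alone.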

How the results depend on the processing

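Over microglia, 63 genes and 0 members passed. The counts were 1617 genes and 9 members with no filter on low counts, 681 and 2 with DESeq2, 749 and 1 with all filtered cells, and 157 genes with clusters weighted equally. Samples of the 2 genotypes share only a replicate number, and deviations of same-numbered mice correlated with r = 0.152 over 13882 genes. A fit with the replicate block called 429 genes (3.09%) and 1 member (Hspa1b) and turned Egr1 to −0.0268. With the block, 1926 genes and 10 members were called in clusters 1, 2, 3 and 5 together. These were 6 of 38 members in cluster 1, 2 of 38 in cluster 2, 2 of 34 in cluster 3 and 0 of 37 in cluster 5. The shares of all genes were 5.66, 3.61, 7.54 and 0.316%. Counts for these clusters together add up separate fits, so that a gene can count more than once. In cluster 7 the fit with the block left Gadd45b and Socs3 at adjusted p = 0.0686 and 0.0888 (edgeR).

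Leaving out each mouse gave 4 to 2586 genes and 0 to 17 members over microglia, 222 to 2261 and 1 to 18 in cluster 0, 70 to 160 and 1 to 8 in cluster 7, 126 to 3698 and 0 to 32 in clusters 1, 2, 3 and 5 together, and 539 to 1962 and 12 to 19 for the difference between cluster 0 and the other microglia. Over microglia the log2 fold change then ran from −0.0628 to 0.426 for Fos, −0.355 to 0.154 for Jun (0.0286 without PRMT1FL mouse 1), −0.465 to 0.115 for Junb, −0.566 to 0.0594 for Jund, −0.495 to 0.442 for Egr1 (−0.0387 without PRMT1FL mouse 2), −0.046 to 0.748 for Ier3, −0.989 to −0.158 for Egr2, −0.35 to −0.0469 for Zfp36, −0.372 to −0.126 for Rhob, −0.57 to −0.262 for Klf2, 0.0835 to 0.281 for Cebpb and −1.02 to −0.389 for Hspa1b. In cluster 7 it ran from 0.309 to 0.844 for Gadd45b, 0.313 to 0.814 for Dusp1 and 0.388 to 0.606 for Socs3. The log2 ratio of sums between genotypes ran from −0.373 to 0.185 for AP-1, −0.521 to 0.417 for Egr, −0.33 to 0.127 for the feedback genes, −0.396 to −0.0796 for Klf, 0.039 to 0.246 for the other factors and −0.131 to −0.0883 for heat shock genes. That of cluster 0 over cluster 3 ran from 4.02 to 4.11 for AP-1 and −0.522 to −0.494 for heat shock genes. With library totals the heat shock ratio between genotypes was −0.0357, and those between clusters 4.74 for AP-1 and 0.164 for heat shock genes. The counts of calls without each mouse take their spread from the other genotype's pair alone. They therefore do not show how far a call depends on the mouse left out.

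Mean correlations moved with depth. Thinned to 1000 and 4000 UMIs they were 0.248 and 0.342 among AP-1 genes, 0.246 and 0.368 for AP-1 with feedback genes, 0.158 and 0.228 with Egr, 0.173 and 0.233 with Klf, and 0.0469 at 1000 among heat shock genes. Centred within clusters they were 0.194, 0.186, 0.127 and 0.132, and 0.0187 for AP-1 with heat shock genes. Without the log they were 0.281, 0.276 and 0.202 for AP-1 with itself, feedback genes and Klf, and 0.0716 among heat shock genes. Without each mouse they kept within 0.297 to 0.308, 0.309 to 0.315, 0.19 to 0.201, 0.214 to 0.222, 0.0551 to 0.0635 (heat shock) and 0.0293 to 0.0359 (AP-1 with heat shock). Without barcodes of high doublet score that of AP-1 with feedback genes was 0.325. The causes of these changes were not tested.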
